A study of Mus musculus with 30 samples.

Results

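The comparison described here set aortas of B cell-deficient uMT mice against aortas of wild type (WT) mice, both 42 days after calcium chloride was applied around the abdominal aorta to induce an aneurysm. It rests on the arrays titled for uMT, CaCl2, day 42 (3 arrays) and for wild type, CaCl2, day 42 (3 arrays), chosen by their titles, and so on 6 of the 30 arrays of the series. Both groups carry the strain label C57BL/6 and received 0.5 M CaCl2, and they differ by label in genotype alone. The other 24 arrays, again 3 for each genotype and condition, cover unoperated mice, saline-treated sham mice at days 7 and 42, and CaCl2 at day 7. Abdominal aortic aneurysm is the labelled tissue throughout, even for unoperated and sham mice, and no ages are given. The labels do not say whether the 3 samples of a group came from separate mice, so p-values measure only the spread between these samples, which may be technical.

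B lymphocytes carry antibody on their surface and, once activated, mature into plasma cells that secrete it. An antibody is built from heavy chains (mu for IgM, gamma for IgG) and light chains (kappa or lambda), and the J chain links antibody units into the polymers of IgM and IgA. The uMT line is known for a disruption of the membrane exon of the mu heavy chain gene, which stops B cell development at an early stage, and aneurysm walls are known to gather lymphocytes around the vessel. The arrays measured bulk tissue, in which fewer cells of a type and less RNA per cell cannot be told apart.

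A level is given throughout as the log2 of a probe's processed intensity minus the 75th percentile of its own array, so that 0 marks that percentile. A probe's level is comparable between arrays but not with the level of another probe. The 3 WT arrays had 75th percentile intensities of 277.6, 338.5 and 183.0 and the 3 uMT arrays of 82.3, 141.4 and 173.7, and 50.6% to 61.6% of probes were well above background in WT against 43.2% to 52.4% in uMT. All uMT CaCl2 arrays lay on 1 slide and all WT CaCl2 arrays on another, so slide and genotype cannot be told apart in this comparison. One array outside it, WT sham day 42 replicate 2, was on a slide of its own with a 75th percentile of 36.1 and a correlation with other arrays of at most 0.838, and it enters the estimate of the spread.

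The probes that carried the main difference lay in the constant and variable parts of the antibody genes. They are shown in the RNA's sense, 5′ to 3′, each 60 bases long, with mm9 coordinates from the files, because several of the results turn on a single such probe. The kappa constant region stands for the light chain used by most mouse antibodies, lambda variable 1 for the other light chain, gamma 1 and mu for the heavy chain classes, and the J chain for polymer assembly.
kappa constant, chr6:70676692-70676751, plus strand: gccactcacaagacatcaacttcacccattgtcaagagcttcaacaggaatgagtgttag
lambda variable 1, chr16:19085111-19085170, minus strand: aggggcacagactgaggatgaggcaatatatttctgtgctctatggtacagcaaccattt
gamma 1 constant, chr12:114567263-114567322, minus strand: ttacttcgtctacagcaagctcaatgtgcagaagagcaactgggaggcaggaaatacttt
mu constant, chr12:114659630-114659689, minus strand: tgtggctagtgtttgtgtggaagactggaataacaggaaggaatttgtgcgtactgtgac
heavy chain described as J558 family, chr12:114497090-114497149, minus strand: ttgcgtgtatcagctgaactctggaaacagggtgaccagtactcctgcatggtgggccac
Jchain, chr5:88949919-88949978, minus strand: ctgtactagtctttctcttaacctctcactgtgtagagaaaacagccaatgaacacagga

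After CaCl2 at day 42, antibody genes were the deepest losses in uMT aorta, and most other genes that were called lower differed by much less. Of 23269 genes tested, 260 were lower in uMT (1.12%) and 44 were higher (0.189%) (304 in either direction, 1.31%) at an adjusted p under 0.05 (limma over all 30 arrays with Benjamini-Hochberg adjustment). Of the 260 genes called lower, 50 were described as immunoglobulin chains and 71 were such chains or lay within the antibody loci, which left 189 outside them, 106 of these with a RefSeq name. Of the 84 genes lower by more than 3 on the log2 scale, 48 were described as immunoglobulin chains. All 3 WT arrays were above background for 257 of the 260 genes, and no uMT array was for 108. The groups did not overlap for 259 of the 260 genes called lower and for all 44 called higher, where 21.6% of all genes were lower and 13.4% higher without overlap. The median difference of all genes was -0.05.

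These counts depended on single arrays. Without the dim WT sham array, which enters only through the spread, 2488 genes were lower (10.7%) and 1085 higher (4.66%), the 304 called with it among them. Leaving out a compared array gave 108 lower and 16 higher genes without uMT replicate 1, 105 and 8 without uMT replicate 2, 115 and 12 without WT replicate 2, 75 and 5 without WT replicate 3, and 29 higher genes without WT replicate 1. With slide as a random block and an estimated correlation of 0.782 no gene was called.

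**Figure D1:**
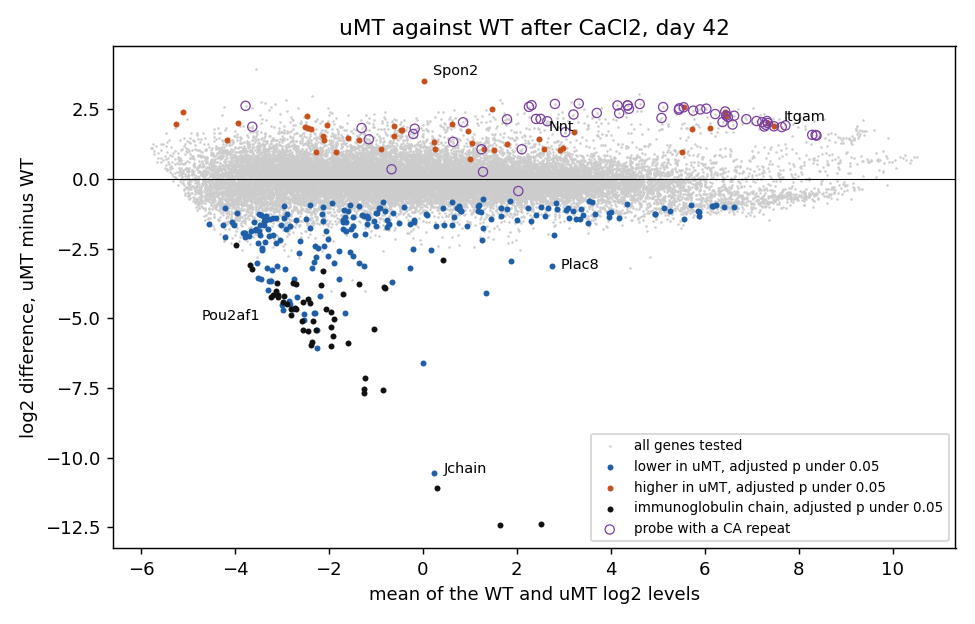
Difference between uMT and WT after CaCl2 at day 42 (log2, vertical) against the mean of both groups' log2 levels (horizontal), 1 point per gene tested. Immunoglobulin chains and Jchain form the lower tail down to -12.43, while the 58 genes measured by a probe with a CA repeat, circled, lie above 0 with 1 exception.

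The array held 146 probes described as immunoglobulin chains, of which 76 passed the filter. A probe passed if it was above background on all 3 arrays of at least 1 group. WT CaCl2 day 42 met this for 75 of the 76. The counts and levels of that group, and the share called lower, are thus partly set by the filter. Where a probe had to be above background on at least 15 arrays, 8 were called lower. Of these 76 probes, 53 were lower in uMT, against 0.894% of all probes called lower, and none was higher. At an unadjusted p under 0.05, 65 were lower. The median difference was -4.14, with a range from -12.43 to 1.36, and 71 of 76 differences were negative. On the WT arrays 76, 76 and 75 of the probes were above background, and on the uMT arrays 14, 16 and 17. The median level of the 76 probes was -1.59, -0.56 and 1.21 on the WT arrays and -4.50, -4.86 and -5.12 on the uMT arrays. The groups did not overlap, with uMT lower, for 58 of 76 probes, where 20.4% of all probes did the same. By chain, 18 of 24 heavy chain probes (median -3.79), 31 of 47 kappa probes (median -4.17) and 4 of 5 lambda probes (median -6.81) were called lower.

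**Figure D2:**
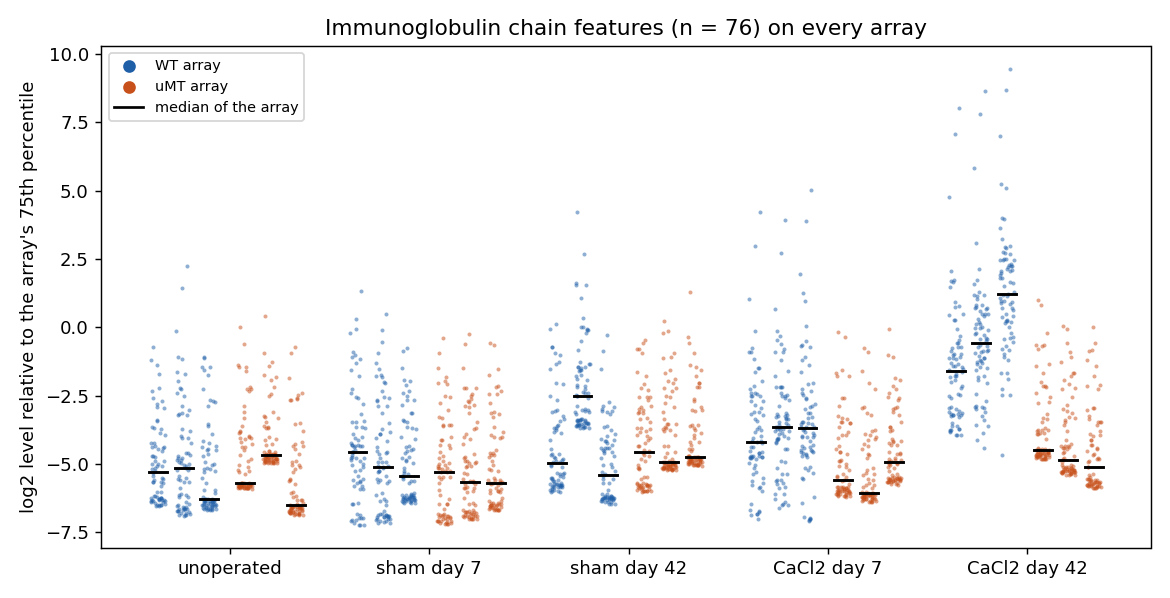
Log2 level of each of the 76 immunoglobulin chain probes (points) on each of the 30 arrays, with the array's median as a bar. The WT CaCl2 day 42 arrays have medians from -1.59 to 1.21, while the uMT CaCl2 day 42 arrays have medians from -5.12 to -4.50, beside -6.48 to -4.69 for unoperated uMT arrays. The raised median of the second WT sham day 42 array (-2.51) belongs to the dim array, on which only 15 of the probes were above background.

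The kappa constant region, the shared end of all kappa light chains, read 4.76, 5.82 and 7.02 on the WT arrays and -4.67, -5.29 and -5.76 on the uMT arrays. No uMT array was above background, so the difference of -11.10 ± 1.16 (SE; limma adjusted p = 8.97e-06) depends on background readings. Set against each array's lowest signal well above background, the kappa constant region was at least 479-fold lower in uMT; other folds given as "at least" were computed the same way.

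Lambda light chains were lower too. Lambda variable 1 read 1.69, 3.10 and 3.99 in WT and -3.91, -5.11 and -4.90 in uMT, a difference of -7.57 ± 0.72 (limma adjusted p = 3.00e-06, at least 62.5-fold lower). Both probes of lambda constant 3 (at least 41.9-fold and 32.4-fold lower) and the probe of lambda constant 2 (at least 20.9-fold lower) were also called. Every WT value of these probes lay above every uMT value.

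Among heavy chains, probes described as gamma classes, which make IgG, were lower, and the mu probe of IgM did not pass the test. The deepest heavy chain differences, -12.43 and -12.38, were at 2 probes described as J558 family, a description that names no class. The J558-described probe shown above read 7.07, 7.80 and 8.68 in WT and -4.81, -3.05 and -5.88 in uMT, a difference of -12.43 ± 1.47 (limma adjusted p = 2.59e-05). It was above background on 1 of 3 uMT arrays. Although described by a variable region family, it lies on the side of the gamma and mu constant probes away from the variable region genes. Its value is therefore not taken as that of a variable gene, and the heavy chain class it measures was not determined here. The probe of serum IgG2a read 1.47, 0.80 and 5.25 in WT and was not above background on any uMT array (at least 46.8-fold lower). WT replicate 3 stood well above the other WT arrays for it.

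Gamma 1 read -0.48, -3.08 and 0.20 in WT and -4.56, -5.19 and -5.66 in uMT at the probe shown above (difference -4.01 ± 0.72, limma adjusted p = 0.00481, at least 3.78-fold lower). Its second probe differed by -2.08 (adjusted p = 0.163). Mu constant read 0.75, -0.02 and 2.91 in WT and -0.67, -0.58 and -0.004 in uMT, a difference of -1.63 ± 0.56 (limma adjusted p = 0.153). Mu was above background on all 3 uMT arrays, and its groups overlapped, with uMT replicate 3 above WT replicate 2. Which exon the mu probe lies in was not determined here, so it does not check the genotype.

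The WT arrays differed from each other in the same probes. WT replicate 3 was the highest WT array for 74 of the 76 immunoglobulin probes, and WT replicate 1 was the lowest for 54. For the 44 kappa variable probes the level on replicate 3 exceeded that on replicate 1 by a median of 3.23 (0.05 to 6.25). Kappa variable 1-133 read -3.29, 1.19 and 2.96 on WT replicates 1, 2 and 3. Without WT replicate 3, 30 immunoglobulin probes were called in place of 53.

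Near-identical variable genes limit what a single probe can tell. Of 2850 pairs of the 76 probes, 4 pairs shared at least 54 matching bases, and one of them is shown with the bases outside the match in capitals.
kappa variable 5-43, chr6:69773526-69773585, minus strand: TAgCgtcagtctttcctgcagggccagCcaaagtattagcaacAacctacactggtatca
kappa variable 5-45, chr6:69725919-69725978, minus strand: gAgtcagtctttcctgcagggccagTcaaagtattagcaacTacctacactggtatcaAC
These probes match at 55 bases after a shift of 2, and they differed between the genotypes by -5.84 (5-43) and -5.46 (5-45), values that may come from shared transcripts.

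Jchain, which links IgM and IgA units, was the largest fall among genes with a RefSeq name. It read 4.44, 5.27 and 6.85 in WT and -3.86, -5.37 and -5.86 in uMT. All WT arrays lay far above all uMT arrays, and no uMT array was above background. The difference was -10.55 ± 1.02 (limma adjusted p = 3.82e-06), at least 378-fold lower in uMT. Jchain was above background on none of the uMT arrays of any condition.

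Of 19 tested genes in a B cell marker list, 5 were called lower and none higher, against 1.12% of all genes called lower, with a median difference of -0.91 beside -0.05 for all genes. Without the dim WT sham array 9 of the 19 were lower, against 10.7% of all genes. Pou2af1, the B cell coactivator of octamer-binding factors, read -1.46, -1.09 and 0.33 in WT and -4.72, -5.28 and -5.78 in uMT. The groups stood apart, with a difference of -4.52 ± 0.56 (limma adjusted p = 4.82e-05, at least 4.91-fold lower). Vpreb3, a protein of B cell precursors, read -2.19, -2.17 and -0.33 against -4.64, -4.15 and -5.72 (-3.27 ± 0.64, limma adjusted p = 0.00835, at least 2.78-fold lower). Ly6d, a surface protein of early lymphoid cells and keratinocytes, fell by 3.12 on the log2 scale (adjusted p = 0.0142), and Fcrla, an intracellular Fc receptor-like protein of B cells, fell by 2.31 (adjusted p = 0.0221).

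Cd79a, which passes the signal of the B cell receptor into the cell, read -1.72, -1.26 and -1.09 in WT and -3.06, -2.91 and -2.67 in uMT. Its difference of -1.52 ± 0.38 was at the threshold (limma adjusted p = 0.0492), and its second probe differed by -0.72 (adjusted p = 0.473). The call held in 7 of 19 alternative settings and was lost without any 1 of the compared arrays. Ms4a1 (CD20), a surface protein of mature B cells, differed by -3.23 (adjusted p = 0.0629) and Cd79b, the partner of Cd79a, by -2.40 (0.0812), and neither passed. Without the dim WT sham array these genes had adjusted p values of 0.0116 and 0.00544. Pax5, Blk and Fcrl1 did not pass the filter on low signal, and the summed linear level of the list ran from 33.7 to 62.1 in WT and from 34.7 to 48.0 in uMT, overlapping.

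Fcmr, the receptor for the Fc part of IgM, read -1.89, -1.76 and -1.31 in WT and -4.68, -5.29 and -5.77 in uMT (-3.59 ± 0.71, limma adjusted p = 0.00895, at least 2.61-fold lower). No uMT array was above background, and the groups did not overlap. Receptors for BAFF and APRIL, the survival factors of B cells and plasma cells, did not pass: Tnfrsf17 (BCMA) differed by -1.99 (adjusted p = 0.0514) and Tnfrsf13c (BAFF receptor) by -2.13 (0.0657). Tnfsf13b (BAFF itself) differed by -1.56 (0.181). All 4 tested genes of that list had negative differences, with a median of -1.78. Without the dim WT sham array 3 of the 4 were called lower, against 10.7% of all genes. The limma adjusted p values were then 0.0138 for Tnfrsf17, 0.0157 for Tnfrsf13c and 0.0141 for Tnfsf13b.

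Of 16 plasma cell genes, 2 were called lower and none higher (median -0.47), against 1.12% of all genes called lower. Of the 16, 5 were lower without the dim WT sham array, against 10.7% of all genes. Jchain was one. The other was Derl3, which helps clear misfolded proteins from the endoplasmic reticulum. Derl3 read -1.72, -0.76 and -0.17 in WT and -3.83, -4.69 and -2.51 in uMT, every WT array above every uMT array, with a difference of -2.79 ± 0.49 (limma adjusted p = 0.00312). Xbp1, a transcription factor that drives secretion in plasma and many other cells, differed by -0.50 (adjusted p = 0.604). The summed linear level of the list was 170.7 to 301.5 in WT and 133.9 to 153.5 in uMT. Without Jchain the sum over the other 15 genes was 149, 193.2 and 185.9 in WT and 143.2, 153.5 and 133.8 in uMT, and the groups overlapped.

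Outside the antibody system the largest falls had varied roles. Cyp2b10, a drug-inducible cytochrome P450, read -0.94, 0.31 and 0.38 in WT and -4.70, -5.31 and -2.80 in uMT (-4.19 ± 0.88, limma adjusted p = 0.0172). Plac8, a cysteine-rich protein of leukocytes, read 3.78, 4.35 and 4.79 in WT and 1.41, 0.78 and 1.35 in uMT (-3.13 ± 0.77, limma adjusted p = 0.0440). Plac8 stayed above background on all 3 uMT arrays, and its second probe differed by -1.92 (adjusted p = 0.0719). Its call held in 8 of 19 alternative settings and was lost with quantile normalization, in the authors' matrix and without any 1 of the compared arrays. Dpep1, a membrane dipeptidase, read 3.07, 2.94 and 4.07 in WT and 0.78, -1.44 and 1.90 in uMT, with uMT replicate 2 the lowest (-2.94, adjusted p = 0.0358).

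Ciart, a repressor of the circadian clock, was nearly level in WT (-0.42, -0.39 and -0.31) and scattered in uMT (-1.37, -2.94 and -5.88), a difference of -3.03 (limma adjusted p = 0.0265). It was the only called gene of 15 tested clock genes (median -0.28). Time of day of tissue collection is not given in the sources used here. Ly6a2, a member of the Ly6 family, differed by -3.24 (adjusted p = 0.00175) and was at least 3.30-fold lower, while Cldn10, a tight junction protein, fell by 3.02 (0.0175) and Mgarp, a mitochondrial protein, fell by 2.99 (0.0132).

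**Figure D3:**
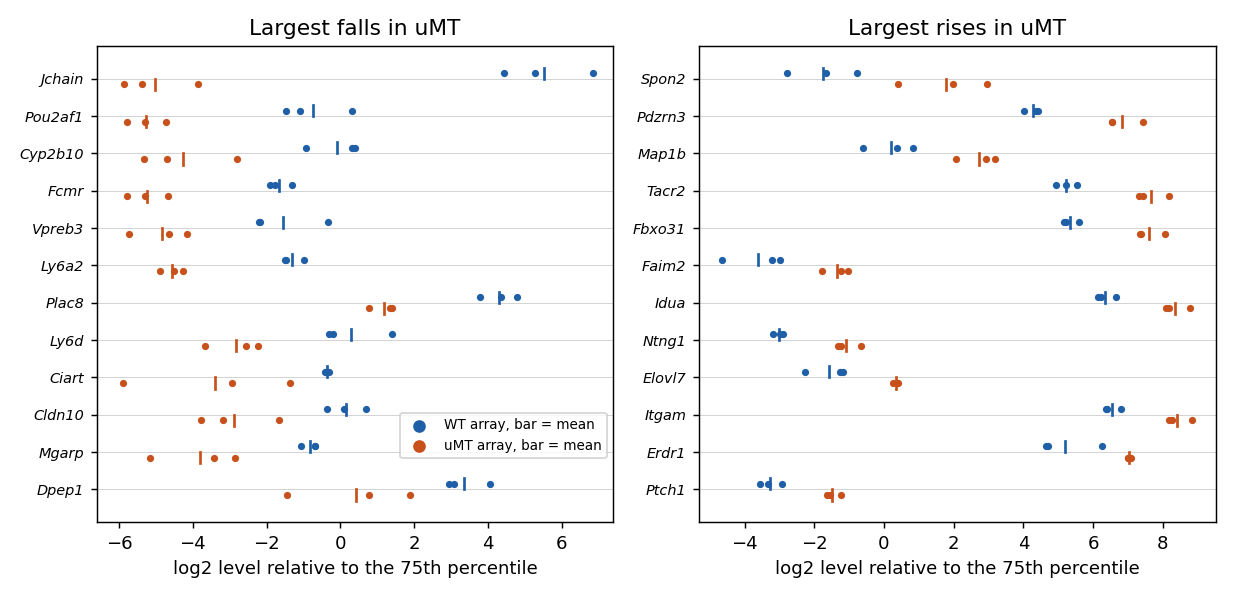
Log2 levels of the 12 largest falls and 12 largest rises in uMT that passed the test, had a RefSeq name, were above background in the higher group and did not overlap, on each of the 3 WT and 3 uMT arrays with group means as bars. Jchain is separated by more than any other gene shown, and Pdzrn3, Tacr2, Fbxo31, Idua and Itgam have probes with a CA repeat.

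The genes called higher differed by less, by at most 3.52 among those named. Spon2, a secreted matrix protein, read -0.78, -1.66 and -2.78 in WT and 0.40, 2.95 and 1.98 in uMT (3.52 ± 0.84, limma adjusted p = 0.0388). The call of Spon2 held in 10 of 19 alternative settings. It was lost in the authors' matrix, without a filter and in the compared groups alone. Leaving out uMT replicate 2 or 3, or WT replicate 2 or 3, also lost it. Faim2, an inhibitor of Fas-induced cell death known from neurons, read -3.20, -2.98 and -4.64 in WT and -1.23, -1.02 and -1.77 in uMT (2.27 ± 0.39, limma adjusted p = 0.00250). For both genes every uMT array lay above every WT array. Sox10, a transcription factor of Schwann cells, read -1.52, -1.18 and -1.45 against 0.15, -0.12 and 0.45 (1.55 ± 0.32, limma adjusted p = 0.0137).

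Sox10 was the only called gene of 10 tested nerve and Schwann cell genes, whose median was 0.24. Ntng1, a netrin-like axon guidance protein, rose by 1.94 (adjusted p = 0.0136), and Erdr1 rose by 1.82 (0.0404).

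Among the rises, 5 were measured by probes that hold a run of alternating C and A, which is given in capitals where it is at least 12 bases long. The probes are shown because this feature of their sequence goes with the difference across the whole array.
Itgam, chr7:135261755-135261814, plus strand: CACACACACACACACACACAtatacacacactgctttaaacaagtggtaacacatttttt
Idua, chr5:109112893-109112952, plus strand: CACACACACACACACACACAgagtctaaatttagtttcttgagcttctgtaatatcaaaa
Tacr2, chr10:61728517-61728576, plus strand: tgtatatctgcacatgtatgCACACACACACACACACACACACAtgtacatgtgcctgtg
Fbxo31, chr8:124073494-124073553, minus strand: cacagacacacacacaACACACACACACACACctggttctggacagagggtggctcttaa
Pdzrn3, chr6:101099946-101100005, minus strand: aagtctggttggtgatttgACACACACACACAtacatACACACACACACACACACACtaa
Itgam, second probe without the run, chr7:135260275-135260334, plus strand: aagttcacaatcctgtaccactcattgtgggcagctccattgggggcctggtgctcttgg

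Itgam, the CD11b chain of a receptor for complement on myeloid cells, read 6.80, 6.38 and 6.41 in WT and 8.84, 8.26 and 8.16 in uMT at the probe with the run, a difference of 1.89 ± 0.48 (limma adjusted p = 0.0497). Its probes without the run differed by 0.21 (adjusted p = 0.857) and 0.00 (0.998), with overlapping groups. Idua, a lysosomal enzyme, differed by 2.01 at the probe with the run and by 0.21 at its other probe, and Fbxo31, a substrate receptor of a ubiquitin ligase, by 2.27 and -0.56. Tacr2, the neurokinin A receptor, differed by 2.42 (adjusted p = 0.0451) and Pdzrn3, a ubiquitin ligase, by 2.57 (0.0492).

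This pattern was noticed after the values were seen and is given as a description. Of 58 tested genes whose probe holds such a run, 57 had a positive difference (98.3%), with a median of 2.14, against 46.4% and -0.05 for the 23211 other genes. Called higher were 5 of the 58 (8.62%) against 0.168% of the others, and at the level of single probes 1 of 60 (1.67%) against 0.126% of all probes. Their median level was 3.43, 2.97 and 3.29 on the WT arrays and 6.52, 5.52 and 5.45 on the uMT arrays. For the 24 of these genes that had other probes without the run, the median difference was 2.11 at the probes with it and 0.04 at the others. The median difference of the 58 genes was 0.28 in unoperated mice, -0.04 after sham at day 7, 2.08 after sham at day 42 and 1.42 after CaCl2 at day 7. The cause was not tested, and the rises of Itgam, Idua, Tacr2, Fbxo31 and Pdzrn3 are values of these probes.

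Of the 44 genes called higher, 5 lay on chromosome 13, between positions 63612879 and 120124394 of mm9. They were 12.2% of the 41 higher genes with a chromosome, while 4.17% of tested genes lie there. Chromosome 5 held as many higher genes, with 5.97% of tested genes, and 12 genes of chromosome 13 were called lower. Nnt, a mitochondrial transhydrogenase known to carry a deletion in the C57BL/6J substrain, read 1.66, 1.85 and 1.76 in WT and 2.95, 3.35 and 3.23 in uMT (1.42 ± 0.27, limma adjusted p = 0.00558). Its second probe differed by 0.50 (adjusted p = 0.473), and the labels name no substrain. Map1b, a microtubule-associated protein of neurons, read 0.84, 0.36 and -0.60 in WT and 2.07, 2.92 and 3.18 in uMT (2.52 ± 0.53, limma adjusted p = 0.0151), and its second probe differed by 0.74 (adjusted p = 0.433). The others were Arsk, Elovl7, a fatty acid elongase (1.91, adjusted p = 0.0235), and Ptch1, the hedgehog receptor (1.78, adjusted p = 0.0239), whose second probe differed by 0.09.

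Arsk, a sulfatase, was measured by a pair of probes that gave opposite differences, shown here for that reason.
Arsk, brighter probe under the rule, chr13:76199926-76199985, minus strand: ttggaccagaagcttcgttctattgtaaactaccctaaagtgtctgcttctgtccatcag
Arsk, other probe, chr13:76198809-76198868, minus strand: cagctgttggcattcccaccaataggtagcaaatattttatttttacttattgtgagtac
The former read -1.42, -1.34 and -1.27 in WT and 0.24, 0.32 and 0.64 in uMT (1.74 ± 0.23, limma adjusted p = 9.91e-05). The latter read -0.16, 0.14 and 0.27 in WT and -3.43, -3.71 and -3.87 in uMT, where no array was above background (-3.75, limma adjusted p = 9.11e-08). The groups overlapped at neither probe, so a direction for the gene as a whole cannot be given from these probes.

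Nnt and Arsk differed by similar amounts in every condition. Nnt was higher in uMT by 1.56 in unoperated mice (limma adjusted p = 0.0183), 1.57 after sham at day 7 (0.0340), 2.09 after sham at day 42 (0.00126) and 1.83 after CaCl2 at day 7 (0.00302). The probe of Arsk that was higher at day 42 after CaCl2 was higher by 1.49 to 2.16 in the other conditions and passed the test in each. Map1b was higher by 1.80 to 3.04 in the other conditions and passed in sham at day 42 and CaCl2 at day 7.

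Resident macrophage markers all had negative differences, 13 of 13 tested, with a median of -1.07, and 2 were called lower, against 1.12% of all genes. In the fit without the dim WT sham array 5 were lower, against 10.7% of all genes. The 2 called in the main fit were Cd209f, a lectin (0.47, 0.33 and 2.37 in WT, -2.38, -1.59 and -0.41 in uMT, adjusted p = 0.0409), and Fcna, a soluble lectin of the complement system, which fell by 2.66 (adjusted p = 0.0480). The call of Fcna held in 7 of 19 alternative settings and was lost with normexp, with quantile normalization, in the authors' matrix and without 4 single arrays (uMT replicates 1 and 2, WT replicates 2 and 3), and its smallest difference was -1.05. The call of Cd209f held in 10 of 19 and was lost without the same arrays. The summed linear level of the list was 398.9 to 550.4 in WT and 234.5 to 296.8 in uMT, without overlap. Markers of recruited and lipid-associated macrophages had a median of 0.28, and of 19 tested only Itgam, measured by the CA-repeat probe, was called.

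Interferon-induced genes all had negative differences, 24 of 24, with a median of -1.003. The groups did not overlap for 15 of them, where 21.6% of all genes were lower without overlap, but 1 was called, where 1.12% of all genes were. Ifit2, an antiviral protein, read -0.02, 0.42 and 0.50 in WT and -1.17, -1.55 and -1.15 in uMT (-1.59 ± 0.39, limma adjusted p = 0.0421). Ifit1, of the same family, differed by -2.32 (adjusted p = 0.0843) and Isg15, a ubiquitin-like modifier, by -1.28 (0.199), both named after their values were seen. The call of Ifit2 held in 7 of 19 alternative settings and was lost with quantile normalization, in the authors' matrix and without any 1 of the compared arrays. Without the dim WT sham array 7 of the 24 were called lower, against 10.7% of all genes.

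Promoters of the interferon list were searched for the letters bound by interferon-stimulated factors. The letters GAAA, any 2 bases and GAAA again, searched on both strands of 300 bases around the start site in the RefSeq table for GRCm38.p6, are in 3.49% of 27025 promoters and in 11 of 16 promoters of the interferon list (68.8%), but in 2 of 84 promoters of the genes called lower (2.38%). The octamer ATGCAAAT, bound by the factors that Pou2af1 assists, is in 1.75% of all promoters, in 2 of 16 promoters of the B cell list (12.5%) and in 5 of 84 of the genes called lower (5.95%). Ifit2, the only called gene of the interferon list, has no match, and Isg15, shown here, was not called. Vpreb3 was called and has the octamer, while the promoters of Cd79a, Pou2af1, Fcrla, Jchain and Derl3, also called, lack it. The matches, which overlap each other in Isg15, are in capitals.
Isg15, chr4:156200769-156201068, minus strand: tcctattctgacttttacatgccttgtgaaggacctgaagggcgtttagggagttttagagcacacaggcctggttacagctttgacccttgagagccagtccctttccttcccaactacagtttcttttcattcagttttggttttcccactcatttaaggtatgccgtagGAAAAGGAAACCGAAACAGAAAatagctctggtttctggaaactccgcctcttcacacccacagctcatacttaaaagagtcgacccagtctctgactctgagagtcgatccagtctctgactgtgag
Vpreb3, chr10:75948050-75948349, plus strand: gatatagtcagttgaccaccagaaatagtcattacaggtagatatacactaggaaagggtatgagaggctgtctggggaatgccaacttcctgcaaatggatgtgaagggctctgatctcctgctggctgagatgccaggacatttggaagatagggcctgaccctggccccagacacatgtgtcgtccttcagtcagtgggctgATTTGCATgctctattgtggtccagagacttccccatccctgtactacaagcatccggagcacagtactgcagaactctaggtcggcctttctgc
A match describes the letters of the window and does not show a binding site.

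**Figure D4:**
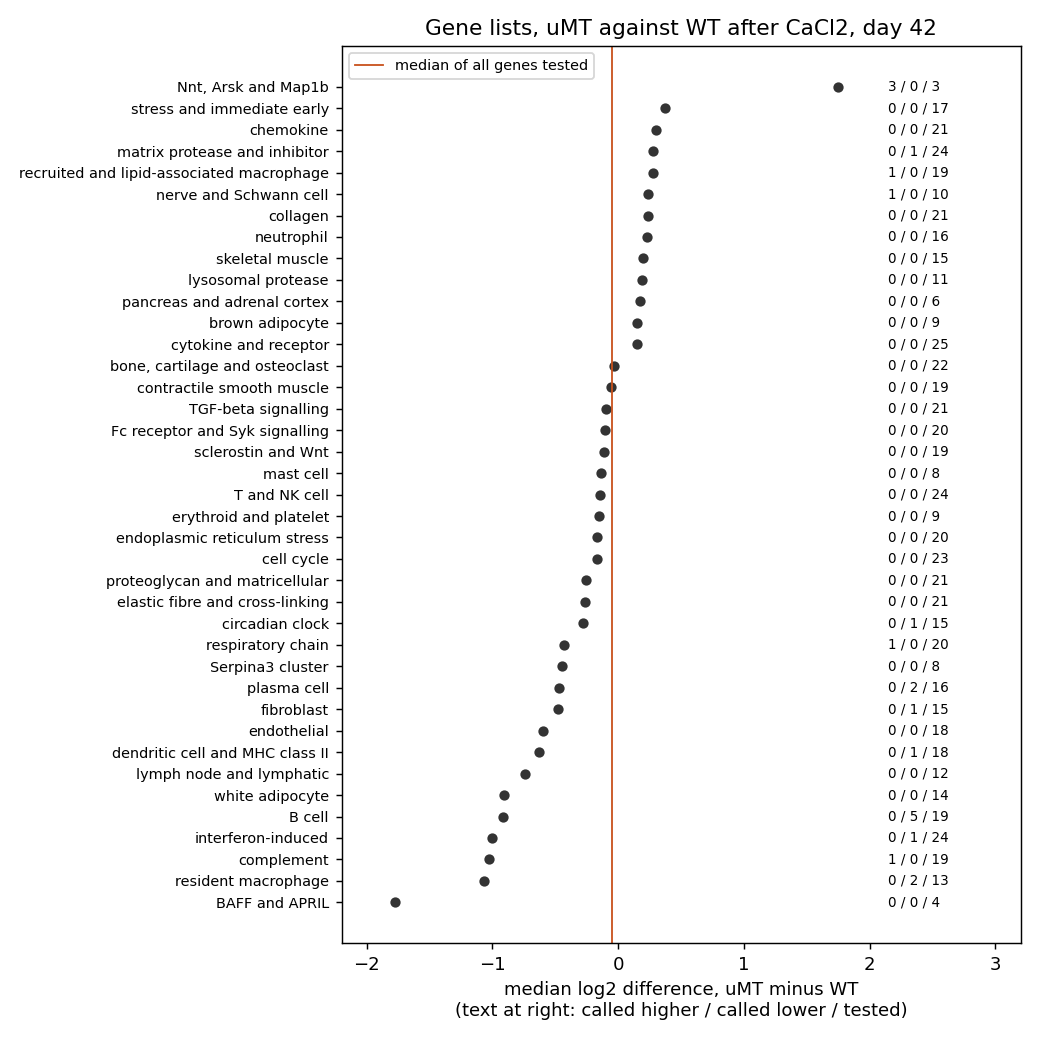
Median log2 difference between uMT and WT after CaCl2 at day 42 for the tested members of each gene list, with the numbers called higher, called lower and tested at the right and the median of all genes (-0.05) as a line. BAFF and APRIL, resident macrophage, complement, interferon-induced and B cell lists have the lowest medians. Called lower were 5 of 19 B cell, 2 of 13 resident macrophage and 1 of 24 interferon-induced genes, against 1.12% of all genes. No gene of the BAFF and APRIL or complement lists was called lower.

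Complement genes had a median of -1.02 over 19 tested, none was called lower, and Itgam was called higher by its CA-repeat probe. Cfi, the protease that inactivates C3b, differed by -3.06 (limma adjusted p = 0.0514), a gene named after its value was seen. At an unadjusted p under 0.05, 9 of the 19 were lower, against 10.1% of all genes. Without the dim WT sham array 7 were called lower and 1 higher, against 10.7% and 4.66% of all genes. Of 18 dendritic cell and MHC class II genes, H2-DMb2, a peptide-loading chain, was the only one called (-1.24, adjusted p = 0.0235). Its call held in 8 of 18 alternative settings and was lost with quantile normalization, in the authors' matrix, without a filter and in the compared groups alone, and its smallest difference was -0.27.

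The lists of vessel wall genes given here held 0 or 1 call each, where 1.31% of all genes were called in either direction. So few calls in lists of this size do not set these genes apart from all genes. None of 19 contractile smooth muscle genes was called (median -0.06), and none had an unadjusted p under 0.05. Acta2, smooth muscle actin, read 8.86, 8.27 and 7.73 in WT and 7.55, 8.82 and 9.34 in uMT, overlapping. None of 21 collagen genes was called by limma, with 2 higher at an unadjusted p under 0.05, against 6.36% of all genes. Of 24 matrix proteases and inhibitors, Mmp23, a membrane-tethered metalloprotease, was called. It read 3.68, 4.03 and 4.24 in WT and 2.32, 2.42 and 2.90 in uMT (-1.43 ± 0.29, limma adjusted p = 0.0135).

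The elastin-degrading and collagen-degrading enzymes known from aneurysm did not pass. Mmp2, a gelatinase, differed by -0.55 ± 0.87 (limma adjusted p = 0.785), Mmp9, the other gelatinase, by 0.01 ± 1.36 (0.998) and Mmp12, the macrophage elastase, by 0.92 ± 0.81 (0.595). Mmp13, a collagenase, read -0.37, 0.56 and -1.44 in WT and 2.01, 1.22 and 2.10 in uMT. Its groups did not overlap, but its difference of 2.19 ± 1.23 did not pass (limma adjusted p = 0.379). Eln, elastin, differed by 0.55 (adjusted p = 0.737).

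Fc receptors and the kinases downstream of them, through which antibody acts on myeloid cells, were not called, 0 of 20 by limma. With 1.31% of all genes called in either direction, 0 of 20 does not set this list apart. At an unadjusted p under 0.05, 1 of the 20 was lower, against 10.1% of all genes. The median of the list was -0.11. Fcgr1, the high-affinity IgG receptor, differed by -1.03 ± 0.46 (limma adjusted p = 0.263), Fcgr4, an activating IgG receptor, by -0.68 ± 0.54 (0.546), and the kinase Syk by 0.24 ± 0.46 (0.822). Chemokines were not called either, 0 of 21 with 4 lower at an unadjusted p under 0.05, against 10.1% of all genes. Ccl11 (eotaxin) read 2.27, 2.10 and 2.96 in WT and 0.35, 0.12 and 0.59 in uMT (-2.09 ± 0.54, limma adjusted p = 0.0528), just short of the threshold. Without the dim WT sham array its adjusted p was 0.00199.

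T and NK cell genes had a median of -0.14, and none of 24 was called or had an unadjusted p under 0.05. At that unadjusted threshold 10.1% of all genes were lower and 6.36% higher. Gzma, a granule protease of killer cells, differed by -1.27 (limma adjusted p = 0.45). Of 20 respiratory chain genes, 19 had negative differences (median -0.43), but none was called lower, and Nnt was called higher. Of the 20, 6 were lower without the dim WT sham array, against 10.7% of all genes. Lymph node and lymphatic markers had 0 of 12 called, and 2 were lower at an unadjusted p under 0.05, against 10.1% of all genes. Their median was -0.74, and their summed level was 48.6 to 65.5 in WT and 48.1 to 71.4 in uMT, overlapping.

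In the other conditions the antibody difference was smaller. The genotypes differed in 21 genes in unoperated mice (0.0902%), 4 after sham at day 7 (0.0172%), 962 after sham at day 42 (4.13%) and 51 after CaCl2 at day 7 (0.219%), the sham day 42 count resting on the group with the dim array. The median over the 76 immunoglobulin probes was 0.39 in unoperated mice, -0.12 after sham at day 7, -0.06 after sham at day 42 and -0.96 after CaCl2 at day 7. None of the 76 was called in unoperated mice (0.0632% of all probes), after sham at day 7 (0.015%) or after sham at day 42 (4.91%). After CaCl2 at day 7, 7 of the 76 were called lower, against 0.175% of all probes called in either direction. On WT arrays 17 to 24 of the probes were above background in unoperated mice, 20 to 42 after sham at day 7, 15 to 22 after sham at day 42, 45 to 62 after CaCl2 at day 7 and 75 to 76 after CaCl2 at day 42. On uMT arrays the number was 9 to 25 in every condition. The WT count after CaCl2 at day 42 is partly set by the filter, since 75 of the 76 probes passed it in that group. The same holds for the contrast with the smaller medians and counts of the other conditions.

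Jchain read 0.38, 0.31 and 1.29 on the WT CaCl2 day 7 arrays, all above background, against -6.16, -5.33 and -4.02 in uMT (-5.83, limma adjusted p = 0.0104). On WT sham day 42 arrays it read -1.91, -3.44 and -5.67, which reached down to the uMT sham values of -5.97, -4.34 and -5.00. Pou2af1 differed by -3.02 at day 7 after CaCl2 (adjusted p = 0.0186), Fcmr by -4.07 (0.0104) and the kappa constant region by -7.20 (0.00786). Derl3, lower in uMT at day 42, differed at day 7 after CaCl2 by 0.63 (0.725).

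**Figure D5:**
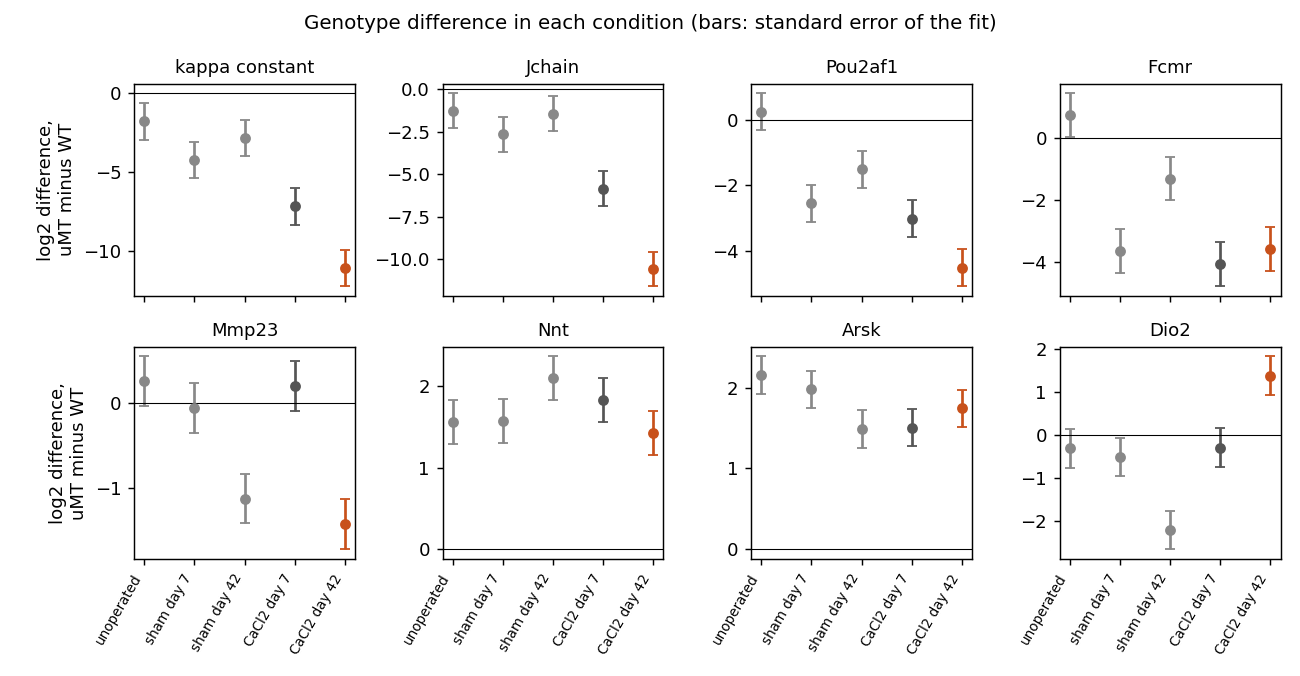
Difference between uMT and WT (log2, with the standard error of the fit as bars) in each of the 5 conditions for 8 probes, with CaCl2 day 42 in orange. Kappa constant and Jchain are lowest after CaCl2 at day 42 (-11.10 and -10.55), while Nnt and Arsk lie between 1.42 and 2.16 in all conditions and Dio2 is below 0 after sham and above 0 after CaCl2 at day 42.

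The genotype difference at day 42 was also compared between CaCl2 and sham, which share no arrays, in 1 interaction term per gene. It was called for 25 genes (0.107%), 22 with a lower and 3 with a higher difference after CaCl2, 13 of the 22 described as immunoglobulin chains, and 1317 genes had an unadjusted p under 0.05. Of the 25, 23 were also called between the genotypes after CaCl2. The groups compared lie mostly on different slides, so a shift that adds to all arrays of a slide does not cancel in this term. The interaction was -9.12 for Jchain (limma adjusted p = 0.00796), and that of lambda variable 1 was -7.81 (adjusted over probes, 0.00151). The kappa constant region gave -8.25 (adjusted p = 0.0518 over probes and 0.0426 over genes). By probes, 7 of the 76 immunoglobulin probes were called, against 0.0542% of all probes, and the median of the 76 was -4.05. Since 75 of the 76 passed the filter in WT CaCl2 day 42, this count and median are partly set by the filter.

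The genes whose difference was higher after CaCl2 than after sham were Dio2, Faim2 and Gab2. Dio2, which activates thyroid hormone, read 0.12, -0.33 and -0.08 in WT and 1.15, 2.44 and 0.24 in uMT after CaCl2, and -0.10, -0.04 and -0.33 in WT and -1.75, -2.95 and -2.37 in uMT after sham. Dio2 thus read higher in uMT in the one case and lower in the other, with no overlap in either. Its interaction was 3.58 (limma adjusted p = 0.0176). After CaCl2 its difference of 1.37 was not called (limma adjusted p = 0.124), and 13.4% of all genes were higher without overlap. Faim2 gave 3.02 (adjusted p = 0.0192) and Gab2, an adaptor of receptor signalling, 1.91 (0.0358). The difference of Gab2 after CaCl2, 0.74, was not called (limma adjusted p = 0.156). The WT sham group holds the dim array. Without that array 104 genes were called. Leaving out other arrays gave 4 genes without WT CaCl2 replicate 3, 5 without uMT sham replicate 2, 8 and 9 without uMT CaCl2 replicates 2 and 3, 11 without uMT sham replicate 3 and 51 without WT CaCl2 replicate 1.

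Between day 7 and day 42 after CaCl2 the genotype difference changed for no gene by limma (0% called), with 1127 genes at an unadjusted p under 0.05. A shift that adds to all arrays of a slide cancels in this term, because each genotype's CaCl2 arrays share a slide. The immunoglobulin probes had a median of -2.97 and Jchain -4.72 (adjusted p = 0.612). That median is partly set by the filter, which most of these probes passed in WT CaCl2 day 42. The count was 128 without uMT CaCl2 day 7 replicate 1, 1 without WT CaCl2 day 42 replicate 1 and 10 without the dim WT sham array.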

How the data were processed

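RNA from mouse aorta was hybridised to 1-colour Agilent arrays, 1 array per sample, 30 in all. Spot intensities were made with Agilent Feature Extraction 10.7.1.1, per the file headers (9.5.1.1 per the submitters' processing notes), which subtracted background and removed spatial trends; coordinates are mm9. A matrix of processed intensity values deposited by the authors, on 1 set of sorted values per array, was an alternative (lowest r with its own array 0.979).

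Intensities of a probe's spots were averaged, 24 of 55681 probes were left out for flags, log2 values were centred on each array's 75th percentile, and probes well above background on all 3 arrays of at least 1 group were kept (33228). No spot was saturated. The array's number limits the precision. The brightest probe stood for a gene (23269 genes, 16011 in the RefSeq table). limma 3.58.1 in R 4.3.3 fitted 1 mean per group over 30 arrays (20 residual degrees of freedom), two-sided, with Benjamini-Hochberg adjustment over all genes, or over all probes for immunoglobulin probes and second probes; the code was tested on simulated data.

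The members, the 40 gene lists and the named genes were chosen with earlier results of these data known. Named are the 12 largest rises and falls that passed, had a RefSeq name, lay above background on all arrays of the higher group and did not overlap, the 4 largest in each interaction, fixed genes, up to 4 members per list and the leading immunoglobulin probes. Alternatives were other background correction, scaling, filters, probe summaries, arrays left out, array weights, slide and replicate blocks. Some genes are not reported here.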

Additional observations from a re-analysis of the deposited data

Results flagged for a closer look

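Of the results, 7 were singled out because the genotype difference at day 42 differed between CaCl2 and sham by the interaction test itself. For Dio2 the interaction was 3.58, for Faim2 3.02 and for Gab2 1.91. For Jchain it was -9.12, for the heavy chain complex cDNA -7.59, for lambda variable 1 -7.81 and for the gamma polypeptide -5.55. With slide as a random block 0 genes were called in this interaction, and 0 in the compared groups alone. The WT sham arrays of these comparisons include the dim array. Without it the interaction was 3.52 for Dio2, 2.77 for Faim2, 1.595 for Gab2, -9.24 for Jchain, -8.44 for the heavy chain complex cDNA, -8.36 for lambda variable 1 and -6.22 for the gamma polypeptide, and all 7 were called, with limma adjusted p from 0.000151 (lambda variable 1) to 0.0179 (Faim2). Dixon's test for single arrays was not run, since the groups hold 3 arrays each.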

How the results depend on the processing

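Counts of genes moved widely with the processing, while directions mostly did not. The main values were 0.189% of genes higher, 1.12% lower, 0 genes for the interaction of genotype with day, 25 for that with operation and 53 lower immunoglobulin probes. In that order, normexp with quantile normalization gave 0.984%, 1.87%, 34 and 40, quantile normalization 0.486% higher, 25 and 70, and the authors' matrix 0.46% higher, 25 and 62. No filter gave 0.0806% and 0.406%, a filter of at least 15 arrays above background 0.0695%, 0.537%, 5 for operation and 8 probes, and a 75th percentile over probes above background on all arrays 0.305% higher. The compared groups alone gave 0.327%, 0.572%, 0 for operation and 24 probes. Without the dim array the values were 4.66%, 10.7%, 10 and 104, and with array weights, whose fit gave a convergence warning, 17.9%, 25%, 4890 and 1796. Slide as a random block gave 0%, 0%, 7, 0 and 0 probes, and without the dim array (correlation -0.0687) 8.46%, 15.5%, 10 and 162. Leaving out 1 array each gave 0.0215% to 0.159% higher, 0.322% to 0.954% lower, 0 to 128, 4 to 104 and 30 to 55 probes.

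The replicate numbers did not pair the samples, with correlations of -0.13, 0.10 and -0.05 between same-numbered arrays, and a replicate block gave 23 higher (0.0988%) and 195 lower genes and 18 for operation. Of the 304 calls, 214 (70.4%) remained with that block, 265 (87.2%) in the authors' matrix and 90 (29.6%) with the compared groups alone. The share of calls that were higher was 14.5% in the main fit, 34.5% with normexp, 24.6% with quantile normalization and 36.4% with the compared groups alone. Without a filter the median of all genes shifted to 0.23.

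The difference of Arsk reversed to -1.003 with the mean of its probes, which disagree. Jchain, Pou2af1, Ly6a2, Nnt and Arsk lost their call only with slide as a random block. An alternative without arrays under 50% of probes above background was not run, because it would leave uMT CaCl2 day 42 with 1 array. The probe set with Iglon5, which is no antibody chain, was chosen after seeing the data and gave 53 lower. Otherwise the causes of these changes were not tested.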

Other observations

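Other short repeats in the probe sequence went with the genotype difference after CaCl2 at day 42 as well, found after the values were seen and given as a description. The 28 genes whose probe holds 12 bases of alternating G and A all had a positive difference, with a median of 2.08. Of 112 genes with alternating T and G, the complement of the CA run, 5 were positive and the median was -0.92. Of 18 with alternating T and C, 1 was positive and 3 were called lower, with a median of -0.75, and of 8 with alternating T and A, 4 were positive. In unoperated mice the medians of these sets were 0.69 (GA), 0.16 (TG), 0.12 (TC) and -0.01 (TA).

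Stress and immediate early genes, taken as 1 list, had a median difference of 0.38 over 17 tested, and 0 of them were called by limma. At an unadjusted p under 0.05, 4 of the 17 were higher, against 6.36% of all genes. Fosb, a subunit of the AP-1 factor, read -0.37, -0.14 and -0.42 in WT and 2.03, 1.29 and 1.18 in uMT (1.81, limma adjusted p = 0.100). White adipocyte genes had a median of -0.91 over 14 tested with none called by limma. At an unadjusted p under 0.05, 1 of the 14 was lower, against 10.1% of all genes. Adipoq (adiponectin) read 1.38, 2.43 and 2.07 in WT and -0.29, -2.87 and 1.97 in uMT.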
